A study of Mus musculus with 6 samples.

Results

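Box H/ACA small nucleolar RNAs (snoRNAs), whose mouse genes are named Snora and a number, were examined in the ribosome-associated RNA of D2 receptor-expressing neurons of the medial prefrontal cortex (mPFC). They were taken as every gene of the deposited transcript table whose name begins with Snora and a digit, which gave 40 genes with 39 names among 47729 genes. Each had 1 annotated transcript of 121 to 205 bases (median 132), and its value was the FPKM of that transcript (its fragments divided by its length and by the library's mapped fragments). All 6 libraries came from adult male D2Cre/LSL-Flag-Cas9/RiboTag mice on a C57BL/6 background, so Cas9 and the hemagglutinin-tagged ribosomal protein Rpl22 were present in the D2 cells of both groups. The 3 Ctrl libraries were from mice given AAV GFP in the mPFC, and the 3 Gsk3sKO libraries from mice given AAV Gsk3sgRNA/GFP, which carries the guide RNA against Gsk3b. Tissue was taken 3 weeks later and tagged ribosomes were pulled down with their RNA. D2Cre is a bacterial artificial chromosome transgene, which decides the cells that were tagged, and the control virus is described without a guide, so cutting by Cas9 and loss of the kinase cannot be told apart. The labels do not say whether a library was 1 mouse or a pool, so p-values reflect only how far these 6 libraries scatter, part of which may be technical.

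Box H/ACA snoRNAs guide the conversion of uridine to pseudouridine, mainly in ribosomal RNA, as part of a particle with the pseudouridine synthase dyskerin (Dkc1) and the proteins Nop10, Nhp2 and Gar1. Most are cut from introns of a host transcript, and many hosts encode ribosomal proteins, translation factors or long noncoding Snhg RNAs. The mature particles work in the nucleolus, so these RNAs are not themselves translated, and a ribosome pull-down measures what remains bound or carried along. Among the 40 genes, 37 lay within an annotated host on the same strand, 29 of them within a protein-coding gene. Ribosomal protein genes held 11 and Snhg genes 6.

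The class takes its name from the sequence ANANNA (box H) in the hinge between the hairpins and from ACA near the 3′ end. ACA stood exactly 3 bases from the 3′ end in 33 of the 40 transcripts (82.5%), and ANANNA was centred in the middle part of the transcript in 37 (92.5%), searched on the RNA strand. Among 2034 other annotated transcripts in the same range of lengths, with the snoRNA biotype left out, 2.07% had the ACA and 59.7% the ANANNA, which is common by itself. Both were found in 31 of the 40 (77.5%) and in 1.77% of the others. The sequences of 7 genes are given 5′ to 3′ with the hinge and the terminal ACA in capitals, from the GENCODE M21 transcripts of GRCm38. The first 4 are those that were lower in Gsk3sKO and have no near-identical short copy in the annotation, so that no other annotated short RNA matches them closely. Snora34 lies at chr15:98519716-98519853 on the minus strand within Kansl2, Snora23 at chr7:110046364-110046547 on the plus strand within Ipo7, Snora24 at chr3:123507937-123508066 on the minus strand within Snhg8, and Snora31 at chr14:75847905-75848034 on the plus strand within Tpt1.
Snora34: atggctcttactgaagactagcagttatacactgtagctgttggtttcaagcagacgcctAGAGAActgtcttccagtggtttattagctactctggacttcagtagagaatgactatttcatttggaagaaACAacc
Snora23: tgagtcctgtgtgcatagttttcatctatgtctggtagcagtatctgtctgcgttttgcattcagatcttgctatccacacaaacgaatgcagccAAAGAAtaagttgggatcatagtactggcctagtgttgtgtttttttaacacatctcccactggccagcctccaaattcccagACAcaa
Snora24: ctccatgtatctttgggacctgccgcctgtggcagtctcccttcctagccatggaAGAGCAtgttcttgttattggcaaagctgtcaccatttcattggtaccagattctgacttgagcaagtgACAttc
Snora31: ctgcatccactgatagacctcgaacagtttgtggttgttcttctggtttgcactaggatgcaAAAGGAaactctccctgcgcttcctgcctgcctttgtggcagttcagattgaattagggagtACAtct
Snora21, at chr11:97781639-97781775 on the minus strand within Rpl23, had the highest mean level of the class.
Snora21: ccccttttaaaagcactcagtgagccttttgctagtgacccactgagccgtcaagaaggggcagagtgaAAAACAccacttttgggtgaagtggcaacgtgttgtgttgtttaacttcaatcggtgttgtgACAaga
Snora73a (chr4:132352775-132352979) and Snora73b (chr4:132352322-132352526), both on the minus strand within Rcc1, are shown because they are near-identical, with 198 of 205 bases identical (96.6%).
Snora73a: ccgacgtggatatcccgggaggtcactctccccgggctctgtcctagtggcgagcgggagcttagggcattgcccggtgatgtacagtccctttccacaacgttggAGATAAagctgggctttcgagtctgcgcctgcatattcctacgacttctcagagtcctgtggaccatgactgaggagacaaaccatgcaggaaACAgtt
Snora73b: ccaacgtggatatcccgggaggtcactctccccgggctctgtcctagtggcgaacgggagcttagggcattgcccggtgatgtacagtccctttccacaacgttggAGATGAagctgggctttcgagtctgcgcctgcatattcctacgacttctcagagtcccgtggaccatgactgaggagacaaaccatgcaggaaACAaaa

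The reads behind the FPKM, estimated from the spacing of low values, were about 23.5 to 45.2 M per library. For a transcript of 130 bases 1 FPKM then stood for about 3.05 to 5.87 reads, so values near 1 FPKM rest on few reads. Gsk3b, the targeted gene, had 35.6, 53.8 and 56.5 FPKM in Ctrl and 36.9, 37.0 and 33.6 in Gsk3sKO, and the groups overlapped. The log2 difference was -0.40 ± 0.19 SE (limma unadjusted p = 0.0648). These are RNA levels. The paper judged the knockout in the mPFC by protein staining in D2Cre/LSL-Flag-Cas9 mice, where most neurons with both Cas9 and the guide lacked the kinase. It also tested the guide in Neuro2A cells, where most target sequences were mutated and a Western blot showed much less of the protein. Neuronal markers (Rbfox3, Snap25, Syt1) summed to 1564 to 1801 FPKM in all libraries and none of the 3 was called. Drd2, which marks the D2 cells, had 1.58, 6.02 and 14.1 FPKM in Ctrl and 8.32, 5.96 and 7.28 in Gsk3sKO.

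Snora RNAs were lower in the Gsk3sKO libraries for 11 of the 27 genes that could be tested, and higher for 0. A gene was tested when its mean FPKM over the 6 libraries was at least 1, and called at an unadjusted p under 0.05 in limma on log2(FPKM + 1), fitted to 12874 gene totals. The 11 genes are 40.7% of those tested, while 5.2% of all gene totals were called lower and 1.36% higher. Of the 11, 4 (Snora34, Snora16a, Snora26 and Snora31) reached a group mean of 1 FPKM in Ctrl only, so that they passed the filter through the group in which they were high. At a Benjamini-Hochberg adjusted p under 0.05 only Snora34 was called, beside 0.0466% of all gene totals, and this call was lost in 10 of 14 alternative settings. The median log2 difference was -1.29 over the 27 genes and -1.26 over the 26 without Snora34, against -0.06 over all gene totals. Of the 27, 20 had a negative and 7 a positive difference, beside 7584 and 5290 of all 12874 gene totals. The filter bears on this count and on the median. Of the 27, 7 reached a group mean of 1 FPKM in Ctrl only, all with a negative difference, and 1 (Snora20) in Gsk3sKO only. In 10 of the 27 all Gsk3sKO values lay below all Ctrl values, which held for 8.3% of all gene totals, and the reverse held for 0, against 3.71%. FPKM gives a share of each library. Changes in RNA per cell, in the mix of cells pulled down and in library makeup cannot be told apart in these bulk samples.

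**Figure D1:**
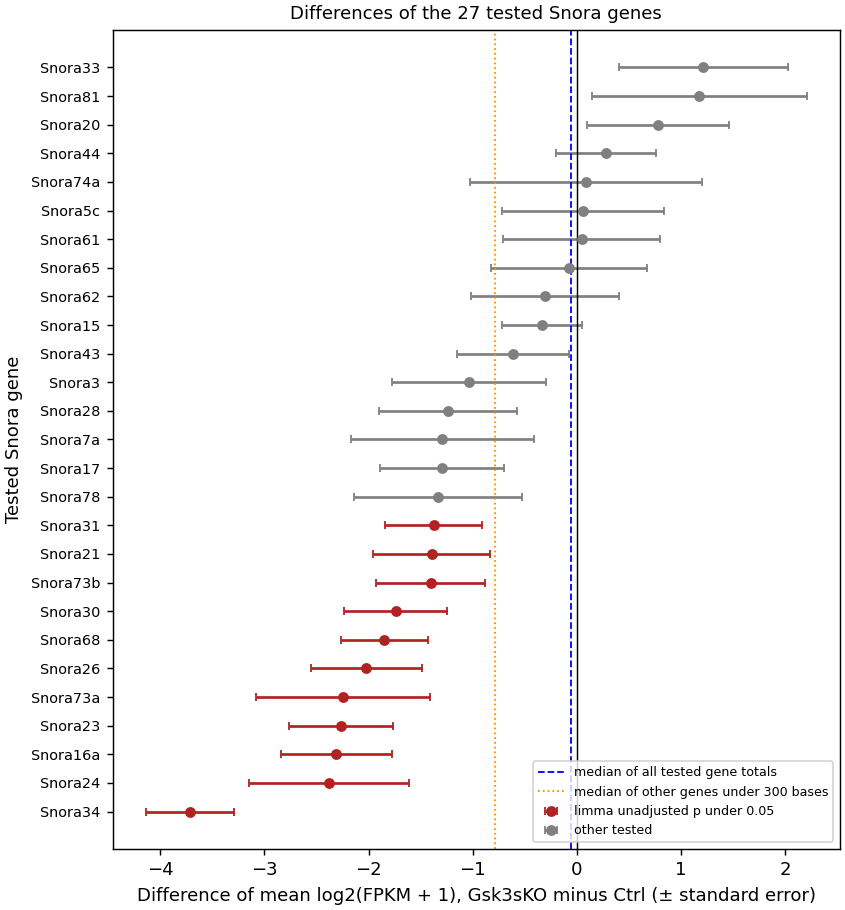
Gsk3sKO minus Ctrl on the log2(FPKM + 1) scale (mean difference ± SE) for each of the 27 tested Snora genes. The 11 genes in red (limma unadjusted p under 0.05) all lie below 0, and the medians of all gene totals (-0.06) and of other genes under 300 bases (-0.79) are drawn as lines. The position of Snora34 depends on the 1 added before the logarithm, since every Gsk3sKO library lists it at 0.

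The count rested in part on Ctrl replicate 2, the library with the most Snora RNA. Without it 7 of 24 genes were called lower and 1 higher, beside 3.41% and 1.07% of 12771 gene totals. The median over the Snora genes was then -0.72, close to the -0.67 of other genes under 300 bases. Snora34, Snora23, Snora68, Snora16a, Snora26, Snora30 and Snora24 were still called, while Snora73a, Snora73b and Snora21 were not and Snora31 fell below the filter.

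Other short RNAs moved with the Snora genes. Of 434 tested genes under 300 bases that are not Snora, 134 were called lower (30.9%) and 11 higher (2.53%), with a median log2 difference of -0.79. Among 12395 genes of 300 bases or more, 523 were lower (4.22%) and 164 higher. Genes under 300 bases took up 40.3%, 39.3% and 22.0% of the total FPKM of the Ctrl libraries and 21.7%, 17.9% and 12.7% of that of the Gsk3sKO libraries. When each library was scaled to its short RNAs, the median over all gene totals went from -0.06 to 0.79. With that scaling, 9 of 26 Snora genes were called lower and 4 higher (Snora81, Snora33, Snora20 and Snora44), beside 0.835% and 49.4% of 12821 gene totals. The Snora median was -0.47 against -0.06 for the other short genes. The limma p-values of that fit matched a normal distribution, so they did not reflect each gene's own scatter. For Snora81 the SE was 0.41 there, against 1.03 in the main fit. How much of the Snora difference goes with short RNAs in general was not tested beyond that scaling.

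The 3 genes that were highest on average, Snora21, Snora23 and Snora24, made up 43.9% to 54.8% of all Snora FPKM in the Ctrl libraries and 31.4% to 39.4% in the Gsk3sKO libraries. Snora21, whose human counterpart is assigned to 28S rRNA, had 46.3, 149 and 40.9 FPKM in Ctrl and 37.4, 11.3 and 33.8 in Gsk3sKO. The groups did not overlap, but the nearest libraries lay close together (log2 difference -1.39 ± 0.56 SE, limma unadjusted p = 0.0365, adjusted p = 0.750). Snora23 had 112, 43.2 and 25.4 FPKM in Ctrl and 15.6, 7.85 and 7.09 in Gsk3sKO. Its means differed 5.93-fold (log2 difference -2.27 ± 0.50 SE, limma unadjusted p = 0.00174, adjusted p = 0.421), and every Gsk3sKO library was below every Ctrl library. Snora24, whose counterpart is assigned to 18S rRNA, had 11.5, 101 and 15.6 FPKM in Ctrl and 7.07, 6.36 and 1.55 in Gsk3sKO. The groups were separate, with Ctrl replicate 2 far above the rest (log2 difference -2.38 ± 0.77 SE, limma unadjusted p = 0.0142), and without Gsk3sKO replicate 3 the p was 0.0607.

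Snora34, also linked to 28S rRNA, had the lowest p of the class. It had 5.97, 22.6 and 12.8 FPKM in Ctrl, or about 37.2, 99.6 and 41.3 reads, and was listed at 0 in each Gsk3sKO library (limma unadjusted p = 1.77e-05, adjusted p = 0.044). Its limma adjusted p was between 0.0278 (pseudocount 0.1) and 0.469 (no filter) over the other alternatives, and 0.0476 to 0.209 with 1 library left out. With scaling to short RNAs it was 2.016e-09, in a fit whose limma p-values did not reflect each gene's own scatter. It ranked 9 of 40 by its mean level. Snora2b, which lies within the same host gene, was listed at 0 in all libraries but Ctrl replicate 2, where it had 0.448 FPKM.

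Snora68, Snora16a, Snora26 and Snora30, which are linked to 28S rRNA as well, were lower without overlap. Snora68 had 14.2, 11.9 and 4.40 FPKM in Ctrl and 1.42, 3.03 and 1.33 in Gsk3sKO (log2 difference -1.85 ± 0.42 SE, limma unadjusted p = 0.00209). Snora16a, within Snhg12, had 3.76, 16.0 and 3.49 FPKM in Ctrl and 0, 0.704 and 0.749 in Gsk3sKO (log2 difference -2.31 ± 0.53 SE, limma unadjusted p = 0.00225). In both genes even the lowest Ctrl library was above the highest Gsk3sKO library. A second gene named Snora16a overlaps this one in the annotation (136 of 137 bases identical) and was listed at or near 0 everywhere, so the reads of that place were assigned to the first. Snora26, within Dancr, had 1.68, 8.36 and 5.20 FPKM in Ctrl and 1.33, 0 and 0 in Gsk3sKO (log2 difference -2.02 ± 0.53 SE, limma unadjusted p = 0.00489). Snora30, within the chromatin remodeller gene Srcap, had 17.3, 33.6 and 15.1 FPKM in Ctrl and 4.22, 2.67 and 13.2 in Gsk3sKO (log2 difference -1.74 ± 0.50 SE, limma unadjusted p = 0.00745). For Snora30 Gsk3sKO replicate 3 came close to the lowest Ctrl library.

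Snora73a and Snora73b (U17) act in the processing of the ribosomal RNA precursor rather than in its modification. Snora73a had 18.6, 39.2 and 14.4 FPKM in Ctrl and 10.7, 0.0569 and 8.18 in Gsk3sKO (log2 difference -2.25 ± 0.83 SE, limma unadjusted p = 0.0262). Snora73b had 14.9, 30.7 and 7.84 FPKM in Ctrl and 9.90, 5.29 and 2.49 in Gsk3sKO (log2 difference -1.41 ± 0.52 SE, limma unadjusted p = 0.0263), and Gsk3sKO replicate 1 lay above Ctrl replicate 3. Since reads can be divided between these near-identical RNAs either way, their sum is the safer value. It was 33.5, 69.9 and 22.3 FPKM in Ctrl and 20.6, 5.35 and 10.7 in Gsk3sKO, with no overlap. Snora31 was the lowest of the 11, with 0.852, 4.33 and 0.936 FPKM in Ctrl and 0.0950, 0 and 0 in Gsk3sKO (log2 difference -1.37 ± 0.47 SE, limma unadjusted p = 0.0176).

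**Figure D2:**
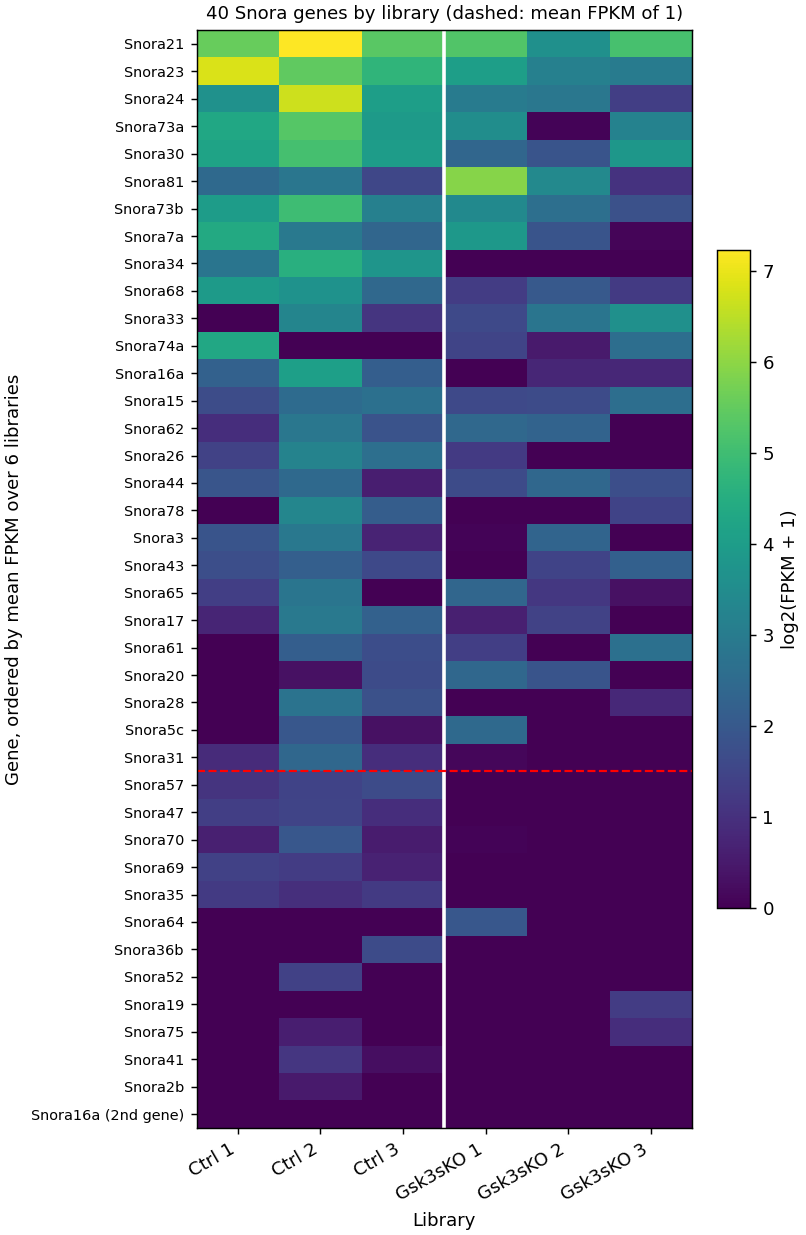
Level of each of the 40 Snora genes in each library as log2(FPKM + 1), with genes ordered by their mean FPKM and the dashed line at a mean of 1 FPKM. Ctrl replicates 2 and 3 each had 36 genes above 0, Ctrl replicate 1 had 26, and the Gsk3sKO libraries had 20 to 24.

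Near-identical copies touched many members. Of the 40 genes, 23 had another annotated short transcript with at least 90% identity over at least 90% of the length, and so did 7 of the 11 called genes. The 23 include both genes named Snora16a, which overlap and match each other, and Snora43, whose match carries the same name. Snora16a is also among the 7. With the FPKM of these copies added, all 11 were lower in Gsk3sKO without overlap. This is a description and not a separate check, since the 11 were picked as lower in these same values. For 4 of them there was no copy to add, and the copy of Snora21 was at 0 in all libraries. Snora73a and Snora73b are each other's copy and share 1 sum. For Snora26 the total with its copies Gm24233 and Gm24988 was 12.9, 21.7 and 6.91 FPKM in Ctrl and 1.51, 0 and 0 in Gsk3sKO. Of the 40 genes, 18 lay inside an exon of another annotated transcript, where the division of reads between the snoRNA and the longer RNA is an estimate. Among them were the called genes Snora24, Snora68, Snora16a and Snora26, whose longer transcripts were listed at no more than 0.156 FPKM in any library. For Snora7a the longer transcript had 1.38 to 11.1 FPKM, and for Snora81 0 to 7.51.

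The 3 tested genes with the largest positive differences were not called. Snora33, within Rps12, had 0, 8.72 and 1.15 FPKM in Ctrl and 2.04, 5.96 and 11.3 in Gsk3sKO (log2 difference 1.21 ± 0.81 SE, limma unadjusted p = 0.173). Snora81, within Eif4a2, had 4.60, 6.23 and 1.89 FPKM in Ctrl and 59.9, 9.55 and 1.10 in Gsk3sKO (log2 difference 1.18 ± 1.03 SE, limma unadjusted p = 0.284). Gsk3sKO replicate 2 also lay above every Ctrl library, but the difference was -0.06 without Gsk3sKO replicate 1. Snora20, within the chaperonin gene Tcp1, had 0, 0.242 and 2.13 FPKM in Ctrl and 4.30, 2.71 and 0 in Gsk3sKO (log2 difference 0.78 ± 0.68 SE, limma unadjusted p = 0.284). Snora7a, within Rpl32, was among the 8 most abundant and was also not called, with 19.96, 6.56 and 4.27 FPKM in Ctrl and 13.3, 2.70 and 0.0721 in Gsk3sKO (log2 difference -1.29 ± 0.88 SE, limma unadjusted p = 0.178). In all of these the groups overlapped over the 6 libraries. With 1 library left out, the lowest limma unadjusted p was 0.00969 for Snora33, 0.0145 for Snora81, 0.0288 for Snora20 and 0.0138 for Snora7a. The highest limma unadjusted p was 0.545, 0.938, 0.696 and 0.626 in the same order.

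The other 13 genes were below the filter and were not tested in the main analysis. Snora31 (mean 1.04 FPKM) was the last inside the filter and Snora57 (mean 0.840 FPKM) the first outside it. Snora57 had 1.12, 1.77 and 2.16 FPKM in Ctrl, Snora47 had 1.54, 1.81 and 0.926, Snora69 had 1.63, 1.43 and 0.610, and Snora35, which lies within the serotonin receptor gene Htr2c, had 1.35, 0.946 and 1.33. All 4 were listed at 0 in every Gsk3sKO library, and their Ctrl values stood for only about 1.88 to 9.62 reads each. Snora70 had 0.554, 2.93 and 0.456 FPKM in Ctrl and 0.0442, 0 and 0 in Gsk3sKO. In a fit without the filter 13 of the 40 genes were called lower, where 3.3% of 26696 gene totals were, and 15 were lower without overlap, where 6.02% were. These 5 genes were among the 13, while 3 of the 11 (Snora21, Snora73a and Snora73b) were no longer called, with limma unadjusted p-values of 0.0587 to 0.0792. Of all 40 genes, 10 were listed at 0 in all Gsk3sKO libraries and 1 (Snora19) in all Ctrl libraries, and 31 had the lower mean in Gsk3sKO. Among the untested genes, Snora64, Snora19 and Snora75 had the higher mean in Gsk3sKO. Their Gsk3sKO values were 2.92, 0 and 0 FPKM for Snora64, 0, 0 and 1.44 for Snora19, and 0, 0 and 0.913 for Snora75.

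Summed over the 40 genes, Snora RNA came to 310.5, 554.0 and 186.6 FPKM in Ctrl and 191.6, 77.7 and 107.6 in Gsk3sKO. The means were 350.4 ± 186.9 and 125.7 ± 59.1 FPKM (SD, n = 3 each), a ratio of 2.79. Gsk3sKO replicate 1 lay just above Ctrl replicate 3, so the groups overlapped in the sum, although 10 of the 11 called genes did not overlap. Box C/D snoRNAs (Snord genes), which guide the methylation of ribose, summed to 1865, 2722 and 1158 FPKM in Ctrl and 830.0, 915.7 and 740.7 in Gsk3sKO, with no overlap. Of 42 tested Snord genes 16 were called lower (38.1%) and 0 higher, with a median log2 difference of -1.06. Of 7 tested Scarna genes, 2 were called lower (28.6%) and 0 higher (median -0.56), beside 5.2% and 1.36% of all gene totals. Scarna RNAs guide the same modifications in Cajal bodies. A difference between the Snora, Snord and Scarna genes was not tested.

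**Figure D3:**
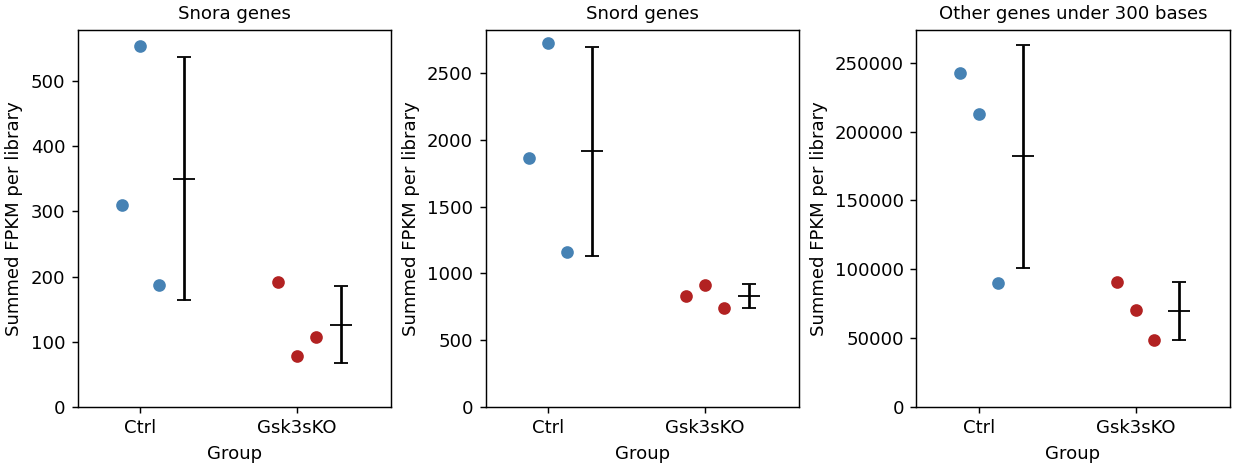
Summed FPKM per library of the Snora genes, the Snord genes and all other genes under 300 bases, by group, with each library as a point and the mean ± SD (n = 3) as a bar beside it. In the Snora panel the highest Gsk3sKO library (191.6 FPKM) reached the lowest Ctrl library (186.6 FPKM), and in the Snord panel the groups were apart.

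Most host transcripts of the tested Snora genes were not called. Of 18 tested hosts, 1 was called lower (5.56%) and 1 higher (5.56%), beside 5.2% and 1.36% of all gene totals. The log2 differences of the hosts had a median of 0.08 and ranged from -0.44 to 0.70. Srcap, the host of Snora30, had 18.9, 16.5 and 29.8 FPKM in Ctrl and 32.5, 35.4 and 36.6 in Gsk3sKO (log2 difference 0.70 ± 0.22 SE, limma unadjusted p = 0.0117), the opposite direction to its snoRNA. Rpl32, the host of Snora7a, had 109, 77.3 and 82.4 FPKM in Ctrl and 65.4, 65.2 and 64.1 in Gsk3sKO (log2 difference -0.44 ± 0.15 SE, limma unadjusted p = 0.0200). For the other tested Snora genes described above, the hosts that were tested lay between -0.41 (Rpl23) and 0.40 (Tcp1), and none was called. Kansl2 was at 0.15, Ipo7 at 0.25, Snhg8 at 0.29 and Rcc1 at -0.27. Dancr, the host of Snora26, had at most 0.156 FPKM in any library, so it fell below the filter and was not tested. Hosts that hold only untested Snora genes, such as Htr2c, were not compared. Across 21 snoRNA and host pairs Pearson's r was -0.03 and Spearman's rho -0.06, as a description, since pairs share libraries and some share a host.

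**Figure D4:**
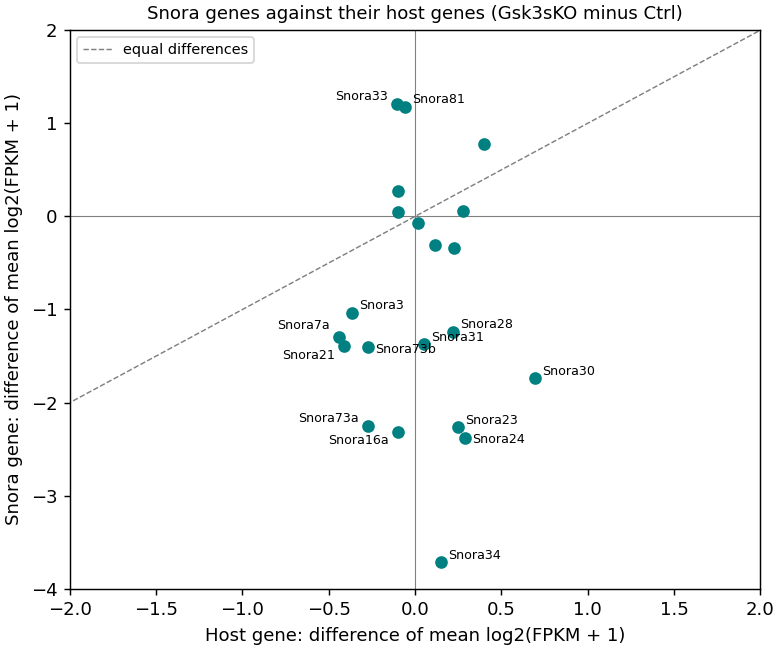
Difference of mean log2(FPKM + 1), Gsk3sKO minus Ctrl, of 21 Snora genes (vertical axis) against that of their host genes (horizontal axis), with the line of equal differences dashed. Hosts stayed between -0.44 and 0.70 while Snora genes reached -3.72 (Snora34, whose position depends on the 1 added before the logarithm because every Gsk3sKO library lists it at 0).

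Of 14 tested genes for proteins of the H/ACA particle and its assembly 1 was called lower (7.14%) and 0 higher. This is near the 5.2% and 1.36% of all gene totals, and the median log2 difference of the 14 was -0.01. The lower one was Nop10, a core protein, with 22.9, 12.8 and 13.2 FPKM in Ctrl and 13.2, 4.90 and 8.54 in Gsk3sKO (log2 difference -0.85 ± 0.35 SE, limma unadjusted p = 0.0388, adjusted p = 0.750), and its groups overlapped. The other core proteins were not called. Dkc1 had a log2 difference of -0.21 ± 0.24 SE (limma unadjusted p = 0.391). Nhp2 had -0.13 ± 0.15 SE (limma unadjusted p = 0.425), and Gar1 had 0.43 ± 0.36 SE (limma unadjusted p = 0.266). Of 12 pseudouridine synthases that work without a guide RNA, 1 was called lower (8.33%, beside 5.2% of all gene totals) and 0 higher. It was Rpusd1 (log2 difference -0.48 ± 0.19 SE, limma unadjusted p = 0.0383), and the median of the 12 was -0.17.

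Other noncoding RNAs, listed as made or kept in the nucleus, were read beside the snoRNAs. Of 9 tested, 3 were called lower (33.3%) and 0 higher, beside 5.2% and 1.36% of all gene totals. Rn7sk, which regulates transcription elongation, had 2912, 3044 and 2263 FPKM in Ctrl and 2133, 2098 and 1501 in Gsk3sKO (log2 difference -0.53 ± 0.22 SE, limma unadjusted p = 0.0422). Rmrp, which acts in ribosomal RNA processing, had 480.3, 674.9 and 346.4 FPKM in Ctrl and 310.5, 337.5 and 172.6 in Gsk3sKO (log2 difference -0.88 ± 0.31 SE, limma unadjusted p = 0.0210). These 2 did not overlap between groups. Rpph1, the RNA of ribonuclease P, had 19836, 5102 and 2579 FPKM in Ctrl and 2268, 1349 and 2687 in Gsk3sKO (log2 difference -1.66 ± 0.66 SE, limma unadjusted p = 0.0349) and overlapped. The other 6 were not called, with log2 differences of -0.67 (Miat), -0.47 (Gas5), -0.39 (Snhg11), -0.23 (Snhg1), 0.11 (Malat1) and 0.39 (Meg3). Terc, the H/ACA RNA of telomerase, was listed at 0 in all 6 libraries.

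Markers of other cells were measured in the same libraries, where 5.2% of all gene totals were called lower and 1.36% higher. The 4 microglial markers summed to 10.8 to 11.9 FPKM in Ctrl and 6.55 to 8.64 in Gsk3sKO, and 1 of 3 tested (C1qa) was called lower. Oligodendrocyte markers summed to 103 to 162 FPKM in Ctrl and 119 to 153 in Gsk3sKO, with 1 of 4 (Mog, listed at 0 in Gsk3sKO replicates 2 and 3) called lower. Astrocyte markers (44.3 to 54.0 FPKM in Ctrl and 39.7 to 56.8 in Gsk3sKO) and endothelial markers (14.2 to 55.2 and 19.9 to 54.1) overlapped, with 0 of 4 called in each. The part of these cells in the Snora differences was not tested.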

How the data were processed

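Ribosome-associated RNA was sequenced in 3 Ctrl and 3 Gsk3sKO libraries, grouped by their titles. The authors deposited FPKM per transcript and library, and the submitters' processing notes name HISAT2 2.1.0, SAMtools 1.9, StringTie 1.3.4d and GRCm38. Tool settings are not given in the sources read. The FPKM of a short RNA depends on how many fragments of its size enter a library, and reads shared by similar or overlapping transcripts are divided by estimate. The authors also deposited a fold ratio, a p-value and a q-value per transcript of their own comparison, which were not used.

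FPKM was summed by gene. Gene totals with a mean of at least 1 FPKM were compared (R 4.3.3, limma 3.58.1; eBayes with trend, 2-sided) on log2(FPKM + 1), without covariates, with Benjamini-Hochberg adjustment over all 12874. A gene was called at an unadjusted p under 0.05. An exact permutation test of 3 against 3 cannot give a p below 0.1. The scripts were tested on simulated data. Tables used Python 3.11.15, numpy 2.4.6 and pandas 2.3.3, and figures matplotlib 3.10.9.

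Positions, hosts (the same-strand gene containing the snoRNA, protein-coding first) and sequences came from GENCODE M21, and 1 host gene is not reported here. Of 115220 transcripts 114237 matched it. The depth estimate used the steps in FPKM times length for transcripts above 800 bases, searched from 20 to 45 in steps of 0.02, a range chosen after seeing the values. As only 12.6% to 20.5% of low values were whole within 0.01 reads, no count test was run, and depth is approximate.

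Named genes were the Snora genes called, the 8 most abundant, the 3 with the largest positive difference, their hosts, the core H/ACA proteins and Gsk3b. Genes named from the other lists (nuclear RNAs, markers, synthases), the untested Snora genes, and genes named for copies or scaling were added after their values were seen. The members and lists were chosen with earlier results of these data known. Replicate numbers did not pair the libraries (correlations of deviations -0.03, -0.01 and -0.08). Alternatives covered the pseudocount, filter, scaling, variance trend, replicate block and each library left out, and scaling to short RNAs was added after seeing the data.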

Additional observations from a re-analysis of the deposited data

How the results depend on the processing

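The number of Snora genes called lower, 11 in the reported analysis, was between 8 (mean FPKM of at least 5, where 10 genes could be tested) and 13 (no filter, and the replicate block) under the planned settings, and between 7 and 13 with 1 library left out. The 7 came without Ctrl replicate 2, with a median of -0.72, and the medians with 1 library left out ran from -1.43 to -0.72. Snora34, Snora23, Snora68 and Snora30 were called in all 14 alternatives. The number with an adjusted p under 0.05, 1 in the reported analysis, was 0 under a mean FPKM of at least 5, median-ratio scaling, no filter, no variance trend and the replicate block, and 0 to 1 with 1 library left out. Higher Snora genes numbered 0 to 2 with 1 library left out, and those higher without overlap 0 to 2. A pseudocount of 0.1 moved the median to -1.93, as it widens differences of low values. Scaling to the short RNAs, chosen after seeing the data, gave 9 lower and 4 higher Snora genes (0.835% and 49.4% of all gene totals). Of these, 8 had an adjusted p under 0.05 (6 lower, 2 higher). Unlike those of the main fit, these limma p-values did not reflect each gene's own scatter. In that setting 3 were lower without overlap and the median was -0.47. The log2 ratio of the summed FPKM was -0.47, against -1.48.

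With the replicate number as a block 13 Snora genes were called lower and 0 had an adjusted p under 0.05, 0 pseudouridine synthases were lower and 1 Snord gene was higher. Same-numbered libraries did not correlate best with each other, so the block rests on a shared number alone.

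The single calls in the other lists were not stable. H/ACA proteins called lower fell to 0 under median-ratio scaling, no filter and no variance trend, and ranged from 0 to 1 with 1 library left out. Pseudouridine synthases called lower were 0 under long-RNA scaling and no variance trend, and 0 to 2 with 1 library left out. Hosts called lower were 0 under median-ratio scaling and no variance trend and 1 to 2 with 1 library left out, while hosts called higher were 2 under median-ratio scaling and 1 to 3 with 1 library left out. Snord genes called higher were 0 to 2 and Scarna genes called lower 1 to 3 with 1 library left out, and 1 Scarna gene was lower with no filter. Changes of sign concerned differences near 0 or set by 1 library. With 1 library left out, Snora81 ranged from -0.0555 to 2.3755, Eif4a2 from -0.2702 to 0.1333, Rcc1 from -0.5797 to 0.0097, Tpt1 from -0.0164 to 0.1801, Rps12 from -0.2485 to 0.0481, Snhg12 from -0.3658 to 0.0638 and Snhg8 from -0.0908 to 0.7323. Causes of these changes were not tested. Low read numbers limit every Snora value near 1 FPKM, and a value listed at 0 does not show that the RNA was absent.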
